A study of Rattus norvegicus with 11 samples.

Results

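The miR-15/16 family is a set of microRNAs that share the same seed, the stretch of bases near the 5′ end that pairs with target messages. Its members in the table of liver small RNA from rats on total parenteral nutrition (TPN) or chow were found by name, as every row for miR-15a, miR-15b, miR-16, miR-195, miR-497 or miR-322, either arm. This gave 9 of 1331 rows: the 5p arms of miR-15b, miR-16, miR-195, miR-322 and miR-497, and the 3p arms of miR-15b, miR-16, miR-195 and miR-322; miR-15a and miR-497-3p are not analysed here. All animals were male Sprague-Dawley rats, an outbred strain, aged 4 weeks. The 6 Control rats ate standard chow and received 0.9% saline by vein for 7 days. The 5 TPN rats were fed entirely into a vein for the same 7 days; neither their infusate nor sham surgery in Control is described in the labels. Each sample is a separate numbered rat, called here by group and number, and the labels describe no transgene, drug or batch.

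A microRNA is cut from a hairpin whose 2 arms, 5p and 3p, can each be loaded into the silencing complex, and the loaded arm then lowers messages that match its seed. The 5p arms of this family are known for repressing cyclins, cyclin-dependent kinases and the survival factor BCL2, so the family is described as a brake on cell division. In rodent liver and heart it is known for the withdrawal of cells from the cell cycle after birth. miR-322 is the rodent counterpart of human miR-424.

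The mature sequences (rno marks Rattus norvegicus) of all 9 members matched RefSeq by name (rat build GRCr8). The 5p arms are shown because they define the family, written 5′ to 3′ with bases 2 to 8, the seed, in capitals.
rno-miR-15b-5p: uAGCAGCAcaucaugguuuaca
rno-miR-16-5p: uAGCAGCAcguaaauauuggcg
rno-miR-195-5p: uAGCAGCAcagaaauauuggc
rno-miR-497-5p: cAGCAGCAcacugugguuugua
rno-miR-322-5p: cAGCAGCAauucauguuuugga
All 5 carry the seed AGCAGCA, and no other rat microRNA in the RefSeq set has it at bases 2 to 8. The nearest letters outside the family are shown next. miR-503-5p, a cluster partner of miR-322, differs in the last base of the seed, and miR-103-3p and miR-107-3p carry the same 7 letters but at bases 1 to 7.
miR-503-5p: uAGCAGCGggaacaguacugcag
miR-103-3p: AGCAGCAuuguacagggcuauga
miR-107-3p: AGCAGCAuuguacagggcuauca

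Behind the seed the members part ways. miR-16-5p and miR-195-5p had the same base at 19 of 21 positions compared from the 5′ end and differed by G10A and U11G, positions counted from 1 at that end with the base of miR-16-5p given before the number. miR-15b-5p had the same base as miR-322-5p and as miR-497-5p at 16 of 22 positions, and as miR-16-5p at 14 of 22. How the authors divided reads that match several members is not given in the sources used here, so levels of miR-16-5p and miR-195-5p in particular could hold reads of each other.

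The genes lie in 3 places of the GRCr8 genome. miR-15b-5p (chr2:155555197-155555218) and miR-16-5p (chr2:155555343-155555364) lie side by side on the plus strand, within the span of Smc4, a condensin subunit gene. miR-497-5p (chr10:55450172-55450193) and miR-195-5p (chr10:55450509-55450529) are neighbours on the plus strand. miR-322-5p (chrX:137726198-137726219) lies on the minus strand within the span of an annotated long non-coding RNA gene, beside miR-503, miR-351, miR-542 and miR-450a. Exon boundaries were not used here, and the deposited table names no build.

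Values were reads scaled to 1000000 per library (CPM), and whole reads could be recovered from them. Libraries held 1404858 (Control 12) to 14788757 (TPN 8) reads. Control 5, 12 and 19 held the fewest reads and the largest shares of predicted microRNAs (0.517% to 1.996%, against 0.0965% to 0.145% in the other 8 libraries), so the fold changes of the members are also given without them. The labelled tissue fitted its markers: rows of the hepatocyte microRNAs miR-122, miR-148a, miR-192, miR-194 and miR-802 summed to 564751 to 797136 CPM in Control and 719836 to 785615 CPM in TPN. The largest part was miR-148a-3p, with means of 477574 CPM in Control and 563009 CPM in TPN. miR-122-5p varied widely between rats (157344 CPM ± 141564 in Control and 137326 CPM ± 92956 in TPN, SD). Members are 20 to 23 bases long, so a read stands for about the same length in each, but ligation efficiency differs between microRNAs and the order of their levels may carry it.

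The family was a minor part of these livers. miR-16-5p, the most abundant member and one that is also abundant in blood cells, averaged 187 CPM over all rats, rank 64 among 533 rat-named rows. miR-195-3p (54.6 CPM) and miR-195-5p (53.3 CPM) followed, and did not differ from each other beyond their spread. Next came miR-15b-5p (22.0 CPM), miR-322-5p (16.6 CPM), miR-322-3p (12.3 CPM) and miR-497-5p (7.93 CPM), neighbours whose ranges over rats overlapped. miR-15b-3p averaged 3.20 CPM and miR-16-3p 0.613 CPM. The 5p rows together summed to 359 CPM ± 163 in Control (SD, n = 6), against 200 CPM ± 77.3 in TPN (SD, n = 5), a description with no test.

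**Figure D1:**
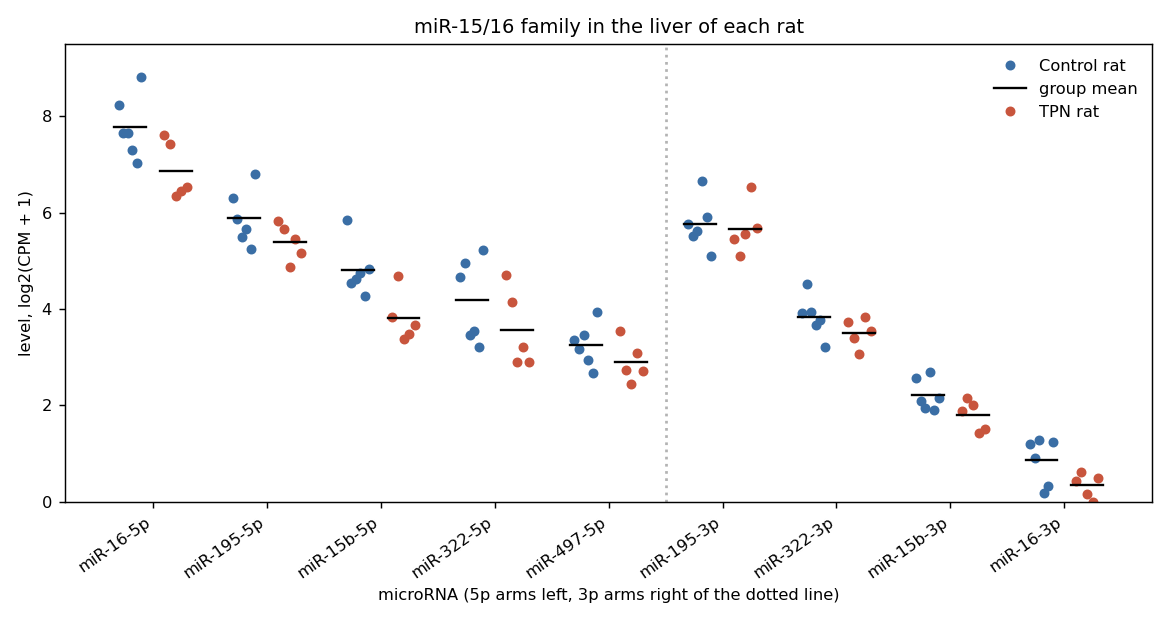
Level of each family member, as log2(CPM + 1), in each of the 6 Control and 5 TPN rats (points) with the mean of each group (black lines). For miR-15b-5p the TPN rats lie below the Control rats except TPN 8 (24.5 CPM). For miR-16-5p, TPN 6 (193 CPM) and TPN 8 (172 CPM) lie in the Control range and the other TPN rats below it.

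With all rats kept, miR-15b-5p and miR-16-5p, made from neighbouring hairpins, had the most negative fold changes among the 8 members tested. No member passed the test over the table. The levels were compared with limma-trend, a linear model that shares the spread between rats across rows, on log2(CPM + 1), with Benjamini-Hochberg adjustment over the 535 rows that averaged at least 1 CPM. It called 0 of 535 rows at an adjusted p under 0.05 (percent called 0) and 0 of the 8 members that entered. At an unadjusted p under 0.05 it marked 61 rows (11.4%), 60 of them lower in TPN (11.2%), and miR-15b-5p and miR-16-5p were among these. The fold changes of all 8 were negative with a median of -0.47, but so were 84.9% of all rows and 79.3% of the 280 rat-named rows. The median was -0.56 over all 535 rows and -0.26 over the rat-named rows, so that of the family lay between them. The predicted rows had a median of -1.15, which became 0.019 without Control 5, 12 and 19. Without those libraries the family median was -0.40, below that of all rows (-0.094) and of rat-named rows (-0.28). The order of the members changed there, with miR-322-3p (-0.48) below miR-16-5p (-0.45). The groups did not overlap, with TPN lower, in 8 of 535 rows (1.5%), none of them a member. With reads in place of CPM, edgeR called 0 rows after adjustment and marked 168 (31.4%) at an unadjusted p under 0.05, with 0 members. DESeq2 called 113 rows (21.1%), 108 of them lower in TPN (20.2%), including 1 member. Most of these were predicted microRNAs: 155 of the rows marked by edgeR and 102 of those called by DESeq2. The shares over all 535 rows are therefore not those of rat-named rows. In a whole liver, fewer cells of a type and less RNA per cell cannot be told apart.

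miR-15b-5p stood at 18.4 CPM in its lowest Control rat, 24.6 at the median and 56.3 in the highest. In TPN it stood at 13.3 (TPN 6), 24.5 (TPN 8), 9.45 (TPN 11), 10.2 (TPN 15) and 11.7 CPM (TPN 16). In 4 of 5 TPN rats it was below every Control rat, and TPN 8 lay inside the Control range, so the groups overlapped. The means were 28.9 CPM ± 13.8 (SD, n = 6) and 13.8 CPM ± 6.17 (SD, n = 5), a log2 fold change of -0.997 ± 0.323 (SE) with a limma-trend adjusted p of 0.296. This was the member that DESeq2 called, with a log2 fold change of -0.72 ± 0.28 (SE) and an adjusted p of 0.04999, just under the threshold. Its unadjusted DESeq2 p was 0.0107, and the adjustment took in the predicted rows, which made up 102 of the 113 calls. DESeq2 was not fitted to rat-named rows alone. Without Control 5, 12 and 19 the limma-trend value was -0.71 ± 0.32.

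miR-16-5p, its partner on chromosome 2, stood at 129 CPM in the lowest Control rat, 200.01 at the median and 447 in the highest. In TPN it stood at 193 (TPN 6), 172 (TPN 8), 80.7 (TPN 11), 85.9 (TPN 15) and 91.1 CPM (TPN 16). TPN 11, 15 and 16 were below every Control rat, while TPN 6 and 8 lay among the Control rats. Its log2 fold change was -0.90 ± 0.35 (SE) with a limma-trend adjusted p of 0.296. The value depended on which Control rats were kept: without Control 5, 12 and 19 it was -0.45 ± 0.35. It was -0.70 ± 0.31 without Control 19 alone, the rat with the highest level, and -0.81 without Control 5 alone. Without Control 12 alone, the library with the fewest reads, it was -0.93.

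Other ways of scaling the libraries moved these values up but left both members on the lower side of the table. With TMM scaling, which sets libraries to a common trimmed mean, the log2 difference was -0.54 for miR-15b-5p and -0.43 for miR-16-5p, where the rat-named median was 0.16. Scaling to the upper quartile of the tested rows gave -0.38 and -0.26 with a median of 0.31. Scaling to the upper quartile of all rows of the table turned both positive (0.30 and 0.48), under a median of 0.91. That quartile is itself very low, 0.815 to 1.37 CPM in 8 libraries, and it was 4.10 to 11.4 CPM in Control 5, 12 and 19.

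**Figure D2:**
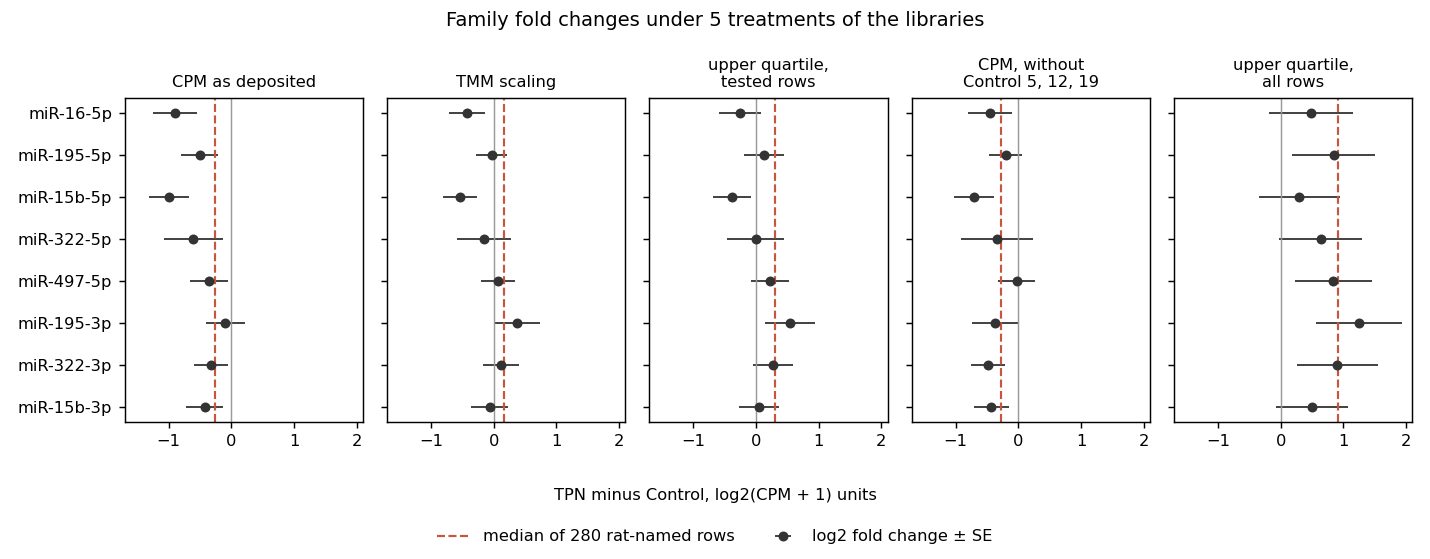
Log2 fold change (TPN minus Control) of the 8 tested members with its standard error, in 5 panels that differ in the scaling of the libraries or in leaving out Control 5, 12 and 19; the dashed line is the median of the 280 rat-named rows. miR-15b-5p and miR-16-5p lie left of the dashed line in every panel, while the zero line moves relative to all members (miR-15b-5p from -0.997 to 0.30).

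miR-195-5p, the close sequence relative of miR-16-5p, had a smaller difference between groups. It stood at 37.1 CPM in the lowest Control rat, 53.4 at the median and 110 in the highest. In TPN it stood at 55.6 (TPN 6), 49.3 (TPN 8), 28.2 (TPN 11), 42.5 (TPN 15) and 34.7 CPM (TPN 16). The groups overlapped widely, with TPN 11 and 16 below every Control rat. The log2 fold change was -0.51 ± 0.30 (SE; limma-trend adjusted p = 0.311), and it was -0.03 with TMM scaling and 0.13 with upper-quartile scaling of the tested rows. Without Control 19 it was -0.33, and without Control 5, 12 and 19 it was -0.20.

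miR-497-5p, made from the neighbouring hairpin, averaged 8.93 CPM ± 3.14 in Control (SD, n = 6), against 6.72 CPM ± 2.41 in TPN (SD, n = 5). Its TPN values ran from 4.43 CPM (TPN 11) to 10.6 CPM (TPN 6) and overlapped the Control range of 5.37 to 14.3 CPM. The log2 fold change was -0.36 ± 0.30 (SE; limma-trend adjusted p = 0.452), and 0.071 with TMM scaling. It was -0.22 without Control 19 and -0.028 without Control 5, 12 and 19.

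miR-322-5p, the member on the X chromosome, varied most between rats of the same group among the 5p arms. It ran from 8.24 CPM to 36.2 CPM in Control with a median of 17.6. In TPN it stood at 25.03 (TPN 6), 16.8 (TPN 8), 6.41 (TPN 11), 8.26 (TPN 15) and 6.49 CPM (TPN 16). Control 5, 7 and 19 with TPN 6 and 8 were high, and Control 12, 16 and 18 with TPN 11, 15 and 16 were low, so high and low rats stood in both groups. The log2 fold change was -0.60 ± 0.47 (SE; limma-trend adjusted p = 0.401). It was -0.16 with TMM scaling, -0.0049 with upper-quartile scaling of the tested rows, -0.40 without Control 19 and -0.33 without Control 5, 12 and 19.

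The 3p arms of miR-195 and miR-322 did not follow their 5p arms closely over the rats (r of -0.32 and 0.26, as a description). miR-195-3p averaged 56.3 CPM ± 23.0 in Control (SD, n = 6), against 52.6 CPM ± 22.5 in TPN (SD, n = 5), a log2 fold change of -0.10 ± 0.31 (SE; limma-trend adjusted p = 0.899) that turned to 0.37 with TMM scaling. It was highest in Control 16 (99.7 CPM) and TPN 15 (91.1 CPM), rats in which the 5p arm was not high (49.7 and 42.5 CPM). miR-322-3p had -0.33 ± 0.27 (0.11 with TMM scaling) and miR-15b-3p -0.42 ± 0.29 (-0.06), with limma-trend adjusted p of 0.443 and 0.348. Without Control 5, 12 and 19, miR-195-3p had -0.36, miR-322-3p -0.48 and miR-15b-3p -0.43. miR-16-3p had between 0 and 9 reads per library and did not reach the mean of 1 CPM. It had 0 reads in TPN 15, which allows up to 3 reads or 0.359 CPM there, and with no filter on low rows its log2 fold change was -0.51 ± 0.35 (limma-trend adjusted p = 0.455).

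The make-up of the family differed less between rats than its level. miR-16-5p held 65.8% ± 3.34 (SD, n = 6) of the reads of the 5 seed-sharing rows in Control and 61.6% ± 3.66 (SD, n = 5) in TPN. miR-195-5p held 17.7% ± 1.59 in Control and 21.9% ± 3.76 in TPN, with the highest share, 27.6%, in TPN 15 and the lowest, 15.3%, in Control 12. The share of miR-15b-5p was 8.52% ± 2.70 and 7.06% ± 1.73, that of miR-322-5p 5.39% ± 2.16 and 5.86% ± 1.58, and that of miR-497-5p 2.60% ± 0.504 and 3.52% ± 0.969. These shares were chosen for description after the levels were seen and were not tested. Those of miR-16-5p and miR-195-5p could hold reads of each other.

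**Figure D3:**
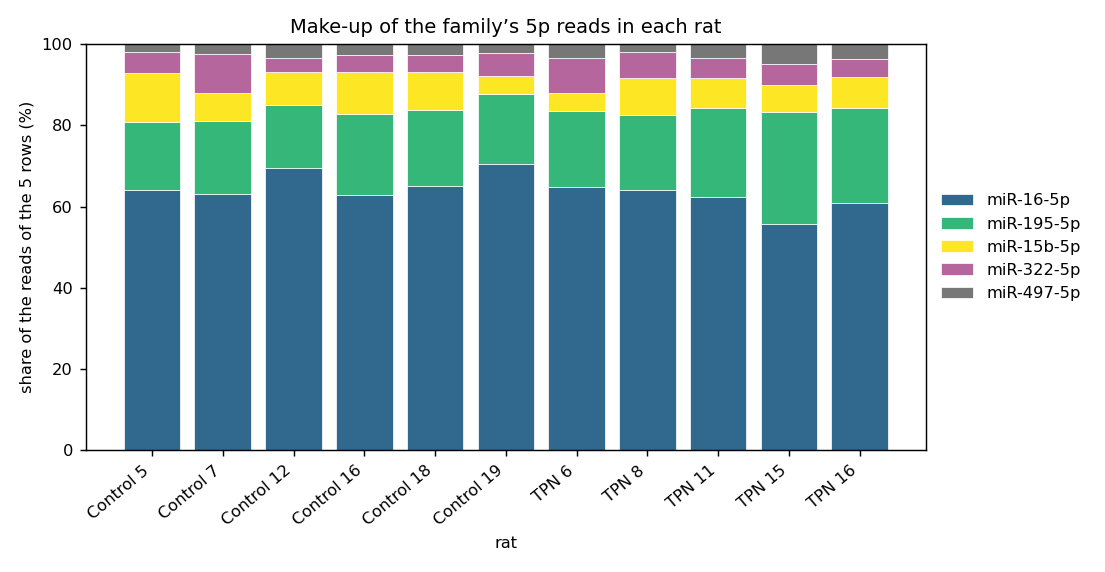
Share (%) of each member in the summed reads of the 5 rows with the seed AGCAGCA, as stacked bars for each of the 6 Control and 5 TPN rats. miR-16-5p takes between 55.7% and 70.4% in every rat, and miR-195-5p between 15.3% and 27.6%.

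Ratios within a library do not depend on how libraries are scaled, and none of 6 ratios passed the test between groups. Each was the log2 ratio of recovered reads with 0.5 read added, compared with a 2-sided exact permutation test over all 462 regroupings and adjusted over the 6. The ratio of miR-15b-5p to miR-16-5p, whose genes lie side by side, averaged -3.01 ± 0.57 in Control (SD, n = 6), against -3.16 ± 0.41 in TPN (SD, n = 5) (exact permutation p = 0.626). Its difference of -0.14 turned to 0.03 without TPN 6, the TPN rat with the lowest ratio (-3.86). miR-195-5p to miR-497-5p averaged 2.76 ± 0.34 and 2.66 ± 0.28 (exact permutation p = 0.606), and miR-322-5p to miR-503-5p 2.75 ± 0.68 and 3.06 ± 0.69 (exact permutation p = 0.472). The exact permutation p adjusted over the 6 was 0.626 for each.

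The balance of the arms also overlapped between groups, but for miR-195 and miR-322 it varied widely between rats. Their hairpins are shown because both arms were read from them, with the mature 5p and then 3p arm in capitals.
Mir195: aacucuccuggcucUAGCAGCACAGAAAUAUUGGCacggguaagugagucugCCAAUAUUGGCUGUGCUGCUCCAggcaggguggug
Mir322: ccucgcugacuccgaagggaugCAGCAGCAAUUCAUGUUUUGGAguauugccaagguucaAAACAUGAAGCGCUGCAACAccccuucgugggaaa
The 5p arm of miR-195 held 76.9% of the reads of both arms in Control 19 (323 of its reads against 97 for the 3p arm; exact Clopper-Pearson 95% interval 72.6% to 80.9%) and 31.8% in TPN 15 (355 against 761; 29.1% to 34.6%). In the other Control rats it held 59.5% (Control 5), 56.2% (Control 7), 47.7% (Control 12), 33.2% (Control 16) and 38.6% (Control 18). The other TPN rats stood at 56.7% (TPN 6), 59.9% (TPN 8), 38.1% (TPN 11) and 40.7% (TPN 16). Rats of each group thus lay on either side of an even balance, and the difference of the log2 ratios, -0.41, had an exact permutation p of 0.465. That difference depended most on Control 19: it was -0.096 without that rat, -0.33 without Control 5 and -0.47 without Control 12. Without Control 5, 12 and 19 together it was 0.16. How reads shared with miR-16-5p were divided is not known, so the 5p share of miR-195 could hold some of them. Control 19 also had the highest level of miR-16-5p, 447 CPM, and the part of shared reads was not tested.

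For miR-322 the 5p arm held 81.5% in Control 19, the highest (73.8% to 87.8%), and 38.0% in TPN 16, the lowest (29.6% to 46.9%). Control 5 and 7 with TPN 6 and 8 stood at 57.8% to 67.2%, and the remaining rats at or below 47.9%. The difference of the log2 ratios was -0.29 (exact permutation p = 0.623), and it was 0.059 without Control 19 and 0.15 without Control 5, 12 and 19. The same 5 rats, Control 5, 7 and 19 with TPN 6 and 8, had the highest 5p shares for miR-195 and for miR-322. miR-15b showed the 5p arm in the majority in every rat, from 75.7% (TPN 11) to 92.0% (Control 5), and its log2 ratio averaged 2.84 ± 0.41 in Control (SD, n = 6), against 2.38 ± 0.46 in TPN (SD, n = 5) (exact permutation p = 0.115). These intervals cover counting error only. The 3p arm of miR-15b had few reads, from 4 in Control 12 to 51 in TPN 8.

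**Figure D4:**
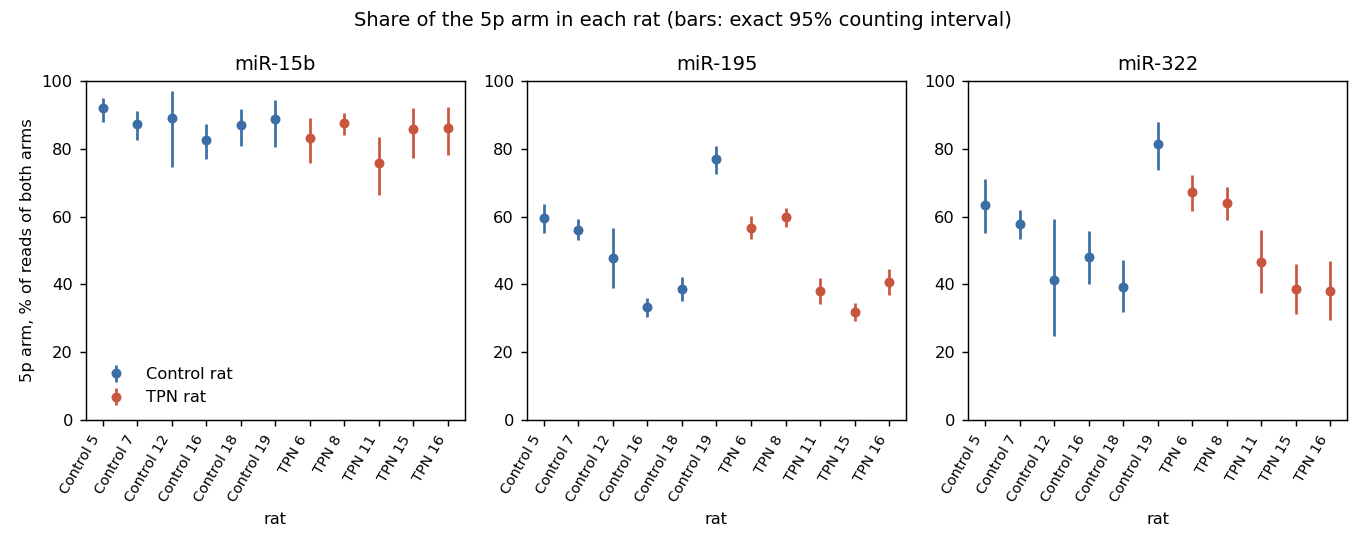
Share (%) of the 5p arm in the reads of both arms of miR-15b, miR-195 and miR-322 in each rat, with the exact 95% counting interval. Control 19 has the highest share for miR-195 (76.9%) and miR-322 (81.5%), and Control 5 and 7 with TPN 6 and 8 follow in both panels.

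The arm balances of miR-195 and miR-322, genes on different chromosomes, were related over the 11 rats, a relation examined after the values were seen. Pearson's r of the log2 ratios was 0.918 (permutation p = 0.00023) and Spearman's rho 0.782 (permutation p = 0.00645). Without Control 19 and TPN 15, the rats farthest from the median of the miR-195 ratio, r was 0.818, and with the group means removed it was 0.918. Without Control 5, 12 and 19, r was 0.872 (permutation p = 0.0135) and rho 0.643 (permutation p = 0.0975) over 8 rats. This was not confined to the family. Among 26 other hairpins with both arms at a mean of at least 10 CPM, the ratio of 10 had an r above 0.8 with that of miR-195, and the ratio of 4 had an r below -0.8. The ratio of the highest to the lowest rat was 7.11-fold for miR-195 and 7.07-fold for miR-322, against a median of 4.12-fold for the other hairpins, 10 of which had a wider range than each of the pair.

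miR-16 is also abundant in red blood cells, so the level of the red cell microRNA miR-451-5p, whose fold change was negative like those of the family, is given beside each member. It averaged 374 CPM ± 265 in Control (SD, n = 6), against 85.5 CPM ± 95.2 in TPN (SD, n = 5), a log2 fold change of -2.35 ± 0.63 (SE; limma-trend adjusted p = 0.296). The red cell list as a whole, with both arms of miR-451 and miR-144, summed to 133 to 802 CPM in Control and 31.3 to 261 CPM in TPN, and miR-451-5p made up most of it. miR-451-3p averaged 0.28 CPM in Control and 0.037 CPM in TPN, with no reads in some libraries, and no row was at 0 in all of them; miR-486 is not analysed here. Over 11 rats, log2 levels of miR-16-5p followed those of miR-451-5p with a Pearson's r of 0.919 (permutation p = 7.0e-05, adjusted p = 0.00584 over 167 rat-named rows averaging 10 CPM or more) and a Spearman's rho of 0.873 (permutation p = 0.00074). Without Control 5 and TPN 15, the farthest from the median of miR-451-5p, r was 0.892, and with the group means removed 0.869. The part of red cell RNA in the difference of miR-16-5p between groups was not tested.

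Relations past the threshold were common in the table. Of the 167 rows, 39.5% had an adjusted permutation p under 0.05 (37.7% with a positive r), and 4 of 6 family members averaging 10 CPM or more were among them. The r of miR-322-5p was 0.854, of miR-195-5p 0.843 and of miR-15b-5p 0.822 (adjusted permutation p of 0.0122, 0.00804 and 0.0122), with rho of 0.818, 0.891 and 0.764. With the group means removed these became 0.925, 0.814 and 0.624, and without the same 2 rats 0.858, 0.864 and 0.704. The 3p arms did not pass, with an r of 0.364 for miR-322-3p and -0.27 for miR-195-3p (adjusted permutation p of 0.394 and 0.539). Among the 161 rows outside the family the median r was 0.437, and the number at or above the member's r was 1 for miR-16-5p, 14 for miR-322-5p, 18 for miR-195-5p and 25 for miR-15b-5p. With the group means removed the median was 0.276, and the numbers were 12, 1, 24 and 57 in the same order. All 4 calls were lost with TMM scaling, where r was 0.867, 0.741, 0.609 and 0.721 for miR-16-5p, miR-322-5p, miR-195-5p and miR-15b-5p, and also without Control 5, 12 and 19, where r was 0.928, 0.827, 0.789 and 0.711 over 8 rats.

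**Figure D5:**
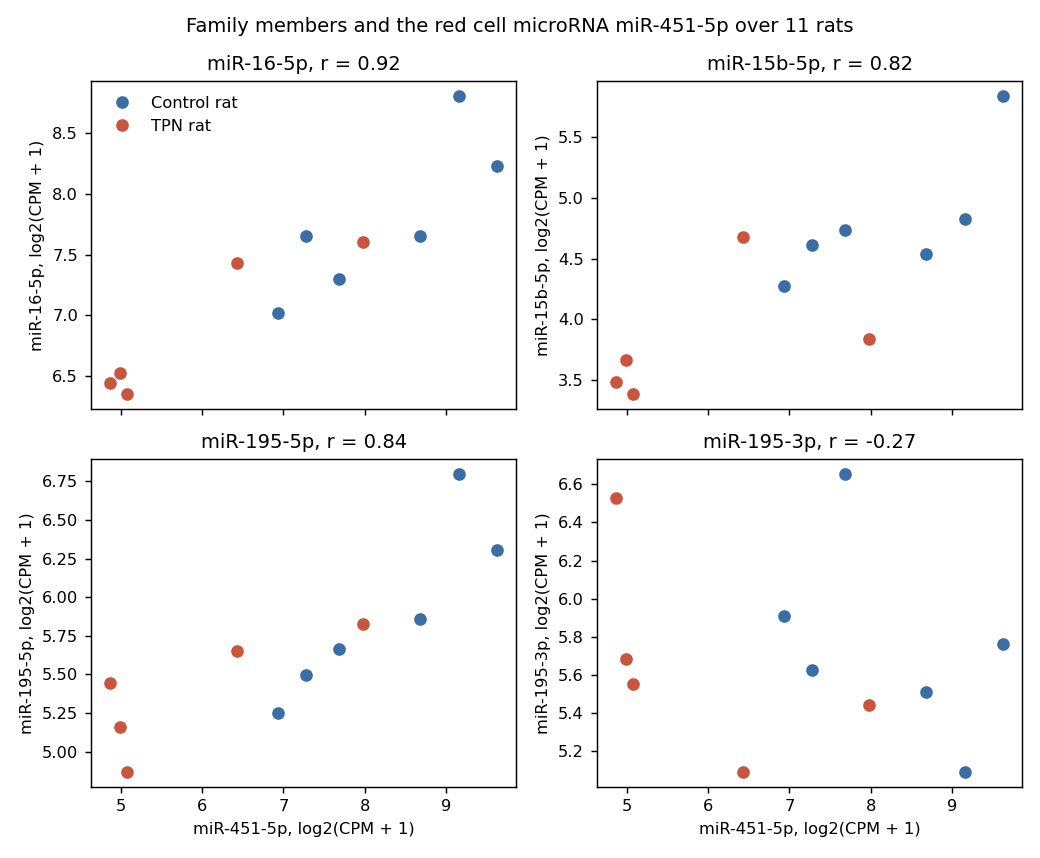
Level, as log2(CPM + 1), of miR-16-5p, miR-15b-5p, miR-195-5p and miR-195-3p against that of miR-451-5p in each of the 6 Control and 5 TPN rats (points). The 5p arms rise with miR-451-5p (r of 0.919, 0.822 and 0.843) and miR-195-3p does not (-0.27).

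Rows outside the family with the most similar levels over the 11 rats were looked up among 162 rat-named rows averaging 10 CPM or more, by the Pearson's r of log2(CPM + 1), as a description. For miR-16-5p these were miR-28-3p (r = 0.971), miR-203b-3p (0.955) and miR-30c-2-3p (0.953). For miR-15b-5p they were miR-194-5p (0.947), miR-339-5p (0.932) and miR-26b-5p (0.925), and for miR-195-5p miR-203b-3p (0.969), miR-20a-5p (0.949) and miR-30e-5p (0.940). miR-322-5p was most like miR-542-3p (0.978), which comes from its own cluster, then miR-126a-5p (0.972), an endothelial microRNA, and miR-30a-5p (0.972). The points share their libraries and depths. Within the family, r was 0.933 between miR-16-5p and miR-195-5p, 0.793 between miR-16-5p and its cluster partner miR-15b-5p, and -0.32 between the arms of miR-195.

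The X-linked cluster around miR-322 showed no call. Of its 10 other rows, 6 were tested, 5 were negative and none passed. Their median log2 fold change was -0.31, where the rat-named rows had -0.26 with 79.3% negative. miR-542-3p had -0.59 ± 0.42 (SE; 50.9 CPM in Control and 32.7 in TPN), close to the -0.60 of miR-322-5p. miR-450a-5p, the most abundant of the cluster, had -0.41 ± 0.34 and miR-351-5p -0.13 ± 0.26. miR-503-5p, with the variant seed, averaged 2.62 CPM in Control and 1.42 in TPN (-0.57 ± 0.36). The limma-trend adjusted p of these 4 ran from 0.325 to 0.797. The positive row was miR-503-3p, the other arm of miR-503-5p, with 0.34 ± 0.44 (SE; limma-trend adjusted p = 0.660). It averaged 0.96 CPM in Control and 1.32 CPM in TPN, with no reads in Control 12 and Control 19. miR-103-3p and miR-107-3p, with the same letters at bases 1 to 7, had -0.31 ± 0.24 and -0.06 ± 0.38.

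Other microRNAs known to act on the cell cycle were described by counts, and no row of either list passed over the table (percent called 0). Of 30 tested rows of microRNAs known to restrain division, such as let-7, miR-34 and miR-26, 25 were negative. Their median log2 fold change was -0.38, the arms of miR-143 and miR-145, also mesenchymal markers, included. Of 15 tested rows of microRNAs known to promote division, such as the miR-17 cluster, miR-21 and miR-221, 13 were negative with a median of -0.27. Rows of either arm were counted, such as let-7b-3p and miR-21-3p, and a known role need not hold for both arms. Of the 280 rat-named rows 79.3% were negative, with a median of -0.26, and the lists were not tested against these. miR-26b-5p had -0.71 ± 0.27 and miR-34a-5p -0.66 ± 0.44, and miR-20a-5p on the other list had -0.61 ± 0.43 (limma-trend adjusted p of 0.296, 0.332 and 0.357).

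Markers of the other cells that liver holds were counted in the same way. Of 8 tested rows of blood and immune cells, 7 were negative (median -0.33), and of 7 tested mesenchymal rows, such as miR-143 and miR-214, 7 were negative (median -0.43). Over the table, 79.3% of the 280 rat-named rows were negative, with a median of -0.26, and these counts were not tested against that share. The 2 endothelial rows were miR-126a-3p (0.00 ± 0.39) and miR-126a-5p (-0.52 ± 0.46), and 5 of 7 rows of bile duct and other epithelium were positive (median 0.19). Immune rows summed to 180 to 342 CPM in Control and 159 to 237 CPM in TPN, mesenchymal rows to 18657 to 37661 and 12710 to 28086 CPM, endothelial rows to 2019 to 6849 and 3162 to 6568 CPM, and epithelial rows to 509 to 1230 and 584 to 1759 CPM. None of these rows was at 0 in all libraries, and their part in the family's levels was not tested.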

How the data were processed

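Liver total RNA of 11 rats was, per the labels' protocols, extracted with TRIzol and sequenced (HiSeq 4000). The deposited table holds CPM: the authors scaled each column to 1000000 reads over its rows. DESeq2 is named without a version or role, per the submitters' processing notes; for aligner, counting, microRNA database and build: not given in the sources used here. Reads were recovered as whole multiples of the smallest value of a column (100% of non-zero values within 0.001).

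The main test was limma-trend (limma 3.58.1, R 4.3.3) on log2(CPM + 1) of rows averaging at least 1 CPM, all 11 rats, no covariate, adjusted over all 535 rows. edgeR 4.0.16 (quasi-likelihood, TMM) and DESeq2 1.42.0 were run on recovered reads. Other scalings, filters, pseudocounts, each rat left out, and Control 5, 12 and 19 left out were tried. Relations to miR-451-5p used 100000 resamples; their adjustment was planned over the members and was made over 167 rows instead. Fold changes on this log scale understate those of rare rows. The fit was also run on simulated counts with known changes, drawn at random up or down. Those counts lack the lower level of most rows seen here, and no result rests on that run. Intervals and the limit of 3 reads for a count of 0 leave out all but counting error, as the labels mention no molecular identifiers. The named rows were all members, the cluster of miR-322, miR-451-5p, and the 3 rows most like each of 4 members; miR-103-3p, miR-107-3p and single rows of the lists were named after their values were seen. The members and lists were chosen with earlier results of these data known.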

Additional observations from a re-analysis of the deposited data

Results flagged for a closer look

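In 30 sets of values, 1 for each group and each member's CPM or log2 ratio, the highest or lowest rat was set against the others with Dixon's test at its 95% critical value, which chance passes in about 1 of 20 sets. It marked 4 values. miR-15b-5p stood at 56.3 CPM in Control 5, where the other Control rats had 18.4 to 27.3 CPM. miR-15b-5p also stood at 24.5 CPM in TPN 8, where the other TPN rats had 9.45 to 13.3 CPM. The log2 ratio of miR-15b-5p to miR-16-5p was -3.86 in TPN 6, against -3.09 to -2.81 in the other TPN rats. The log2 ratio of miR-195-5p to miR-497-5p was 2.11 in Control 12, the library with the fewest reads (62 and 14 reads of these rows), against 2.77 to 3.06 in the other Control rats.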

How the results depend on the processing

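No paired analysis was possible because the groups share only 1 rat number. The number of rows called in TPN against Control was 0 in every fit except DESeq2 (113, of which 102 were predicted rows), and 0 of 6 ratios passed under every alternative run. The number of family members called with miR-451-5p went from 4 to 0 with TMM scaling, with upper-quartile scaling and without Control 5, 12 and 19, and was 3 or 4 when 1 rat was left out, the lost one being miR-15b-5p without Control 5 (r = 0.766). The sign of miR-322-3p with miR-451-5p turned to an r of -0.14 with both scalings. Fold changes that turned positive were, with TMM scaling, miR-195-3p (0.37), miR-322-3p (0.11) and miR-497-5p (0.071); with upper-quartile scaling of the tested rows, miR-15b-3p (0.050), miR-195-3p (0.54), miR-195-5p (0.13), miR-322-3p (0.27) and miR-497-5p (0.22); with edgeR, miR-195-3p (0.33), miR-322-3p (0.062) and miR-497-5p (0.12); and with DESeq2, miR-195-3p (0.24). Upper-quartile scaling over all rows, added after seeing the data, turned all 8: miR-15b-3p (0.51), miR-15b-5p (0.30), miR-16-5p (0.48), miR-195-3p (1.25), miR-195-5p (0.85), miR-322-3p (0.90), miR-322-5p (0.64) and miR-497-5p (0.84). Leaving out 1 rat gave -1.21 to -0.79 for miR-15b-5p, -1.09 to -0.70 for miR-16-5p, -0.32 to 0.080 for miR-195-3p, -0.64 to -0.096 for the arm ratio of miR-195, -0.54 to 0.059 for that of miR-322 and -0.35 to 0.032 for miR-15b-5p to miR-16-5p. Without Control 5, 12 and 19 the differences in the arm ratios of miR-195 and miR-322 were 0.16 and 0.15. The causes of these changes were not tested. Filters on low rows, restriction to rat-named rows and other pseudocounts changed no sign or call of a member. Depth limits miR-16-3p, miR-503-3p, miR-503-5p and miR-15b-3p, which had as few as 0, 0, 3 and 4 reads in a library.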
